A study of Mus musculus with 30 samples.

Results

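The Slc25 genes encode the mitochondrial carrier family, and the 46 of them that the arrays measure, out of 18781 genes with a probe set of their own, are described here in fed and fasted mice, across epididymal white fat (WAT), the liver (LIV) and thigh muscle (SM). A member was any gene whose symbol is Slc25a followed by a number, measured by the brightest of the probe sets that name it alone. Male C57Bl/6 mice (C57Bl/6 J, wild type, in the study's methods) of 10 to 12 weeks, all kept on normal chow, either had free access to food (fed) or had food withdrawn for 24 h from the start of the light phase (fasted). The 3 tissues of 5 fed and 5 fasted mice were measured on Affymetrix Mouse Gene arrays, which gave 6 groups of 5 arrays, and the values are the log2 signals deposited by the authors. The groups describe a single day without food. The tissues were measured whole, so fewer cells of a type and less RNA per cell cannot be told apart.

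Carriers of this family sit in the inner mitochondrial membrane, which is otherwise closed to most metabolites, and each exchanges or cotransports a particular set of substrates such as ADP and ATP, phosphate, citrate, malate, amino acids, acylcarnitines, coenzyme A, NAD or iron. They are built from a repeated module of paired membrane helices, and they link the matrix with the cytosol: citrate leaves for fatty acid synthesis, aspartate leaves for the urea cycle and for moving reducing equivalents, and fatty acids enter as carnitine esters. A few relatives work elsewhere, such as Slc25a17 in the peroxisomal membrane and Slc25a46 in the outer mitochondrial membrane.

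The tissues carried their markers. The mean of 8 adipocyte genes was 11.92 in fed WAT against 5.23 in fed LIV, the mean of 9 hepatocyte genes was 12.63 in fed LIV, and the mean of 10 fibre genes was 12.60 in fed SM. Fed SM also carried adipocyte genes, with array means of 7.12 to 9.43. Arrays fed LIV 4 and fasted SM 5 were left out of the main fit. The study's text names fed LIV 4 as an outlier by principal component analysis. It names fasted SM 1 as the other outlier, but that array was kept here and fasted SM 5 was left out. Fasted SM 5 had a mean of 7 lymphocyte genes of 8.14 against at most 4.08 on the other fasted SM arrays. Fed LIV 4 lay outside the range of the other fed LIV arrays for 31 of the 46 Slc25 genes (fasted SM 5: 29, arrays used: 12 to 27). These counts come from the genes described here, so they are not separate grounds for leaving an array out. They are also uneven, since the arrays used in fed LIV and fasted SM were set against 3 others and all remaining arrays against 4. With both arrays left out, groups hold 5 arrays, or 4 for fed LIV and fasted SM. Changes are called where limma's p, adjusted over all probe sets by Benjamini-Hochberg, was under 0.05 and the change reached 1.3-fold.

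After the fast, 23 of the 46 carriers had changed in at least 1 tissue and 23 in none, whereas 28.6% of all genes were called in at least 1 tissue. In WAT, 9 carriers rose and 6 fell (32.6% of the family, against 15.7% of all genes, of which 7.99% rose and 7.75% fell). In LIV, 9 rose and 3 fell (26.1%, against 7.54% of all genes, 3.53% up and 4.01% down). In SM, 7 rose and 5 fell (26.1%, against 13.6% of all genes, 7.8% up and 5.78% down). The fed and fasted arrays did not overlap for 20 carriers in WAT, 18 in LIV and 16 in SM, beside 21.6%, 17.3% and 22.9% of all genes. The median change of the 46 carriers, which went both ways, was 0.05 in WAT, 0.08 in LIV and -0.03 in SM on the log2 scale, beside 0.01, 0.03 and 0.00 for all genes. Slc25a22 and Slc25a34 were called in all 3 tissues, each time as a rise, while 1.02% of all genes were called in all 3 and 0.421% rose in all 3. Slc25a37 and Slc25a47 were called in opposite directions in 2 tissues, which 1.3% of all genes showed. The count of 7 rises in SM is the least firm: it was 3 without fasted SM 4 and 3 when fed LIV 4 and fasted SM 5 were kept.

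**Figure D1:**
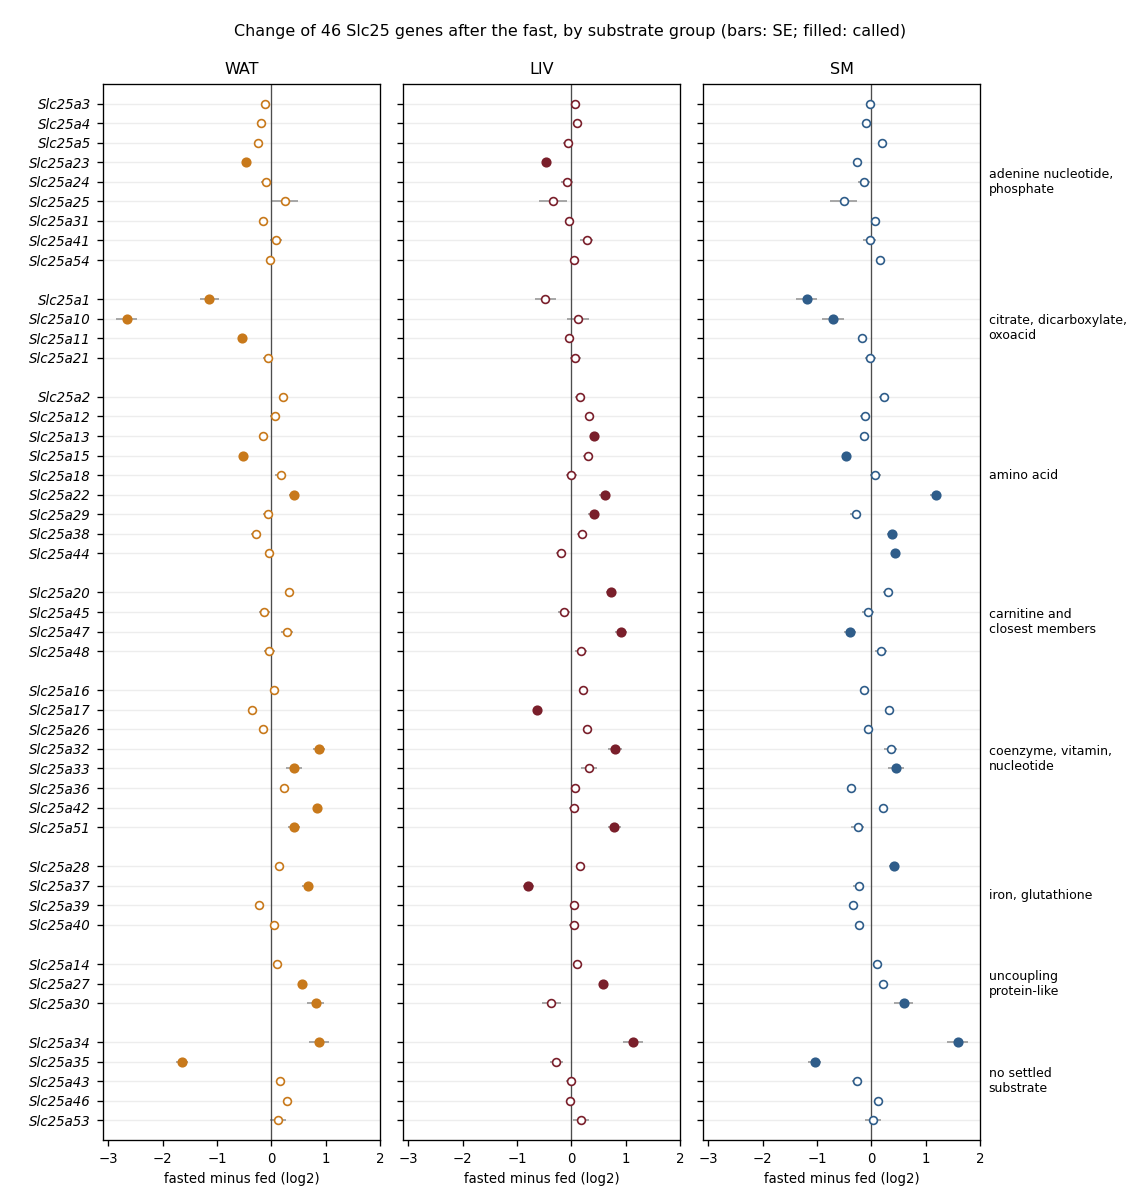
Log2 change (fasted minus fed) of each of the 46 Slc25 genes in WAT, LIV and SM, ordered by substrate group, with bars for the standard error of the fit and filled points for called changes. Slc25a10 lies farthest to the left in WAT, at -2.66, and Slc25a34 lies to the right in all 3 tissues, while among the adenine nucleotide and phosphate carriers only Slc25a23 has filled points.

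The largest fall of the family was in WAT and concerned a carrier of the group that serves the export of citrate and its return as malate. Of the 4 citrate, dicarboxylate and oxoacid carriers, Slc25a1, Slc25a10 and Slc25a11 fell in WAT, Slc25a1 and Slc25a10 also fell in SM, and none was called in LIV. Slc25a10, the dicarboxylate carrier, which exchanges malate or succinate for phosphate, had levels of 10.76, 10.80, 10.74, 10.42 and 10.68 on the fed WAT arrays and of 7.88, 8.06, 8.31, 7.80 and 8.03 on the fasted WAT arrays. The groups lie more than 2 log2 units apart, and the gene fell 6.33-fold (log2 -2.66, SE 0.19, adjusted p = 3.22e-11). In LIV it lay between 10.73 and 10.88 in fed and between 10.69 and 11.02 in fasted mice (log2 0.12, SE 0.20, adjusted p = 0.779).

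Slc25a1, the citrate carrier, had levels of 11.90, 11.98, 11.75, 11.53 and 11.63 in fed WAT and of 10.61, 10.52, 10.77, 10.75 and 10.46 in fasted WAT. It fell 2.2-fold there without overlap of the arrays (log2 -1.14, SE 0.18, adjusted p = 1.87e-05). Its change in LIV was -0.48 (SE 0.19) and did not pass (adjusted p = 0.0994), although the fed arrays (11.16 to 11.29) and the fasted arrays (10.65 to 10.88) did not overlap. That SE comes from 1 spread shared by all groups. The SD of Slc25a1 was 0.05 in fed and 0.09 in fasted LIV, but 0.67 in fed SM. The missing call therefore does not show that Slc25a1 stayed unchanged in LIV. Slc25a11, the oxoglutarate carrier of the malate-aspartate shuttle, was between 9.90 and 10.18 in fed and between 9.26 and 9.63 in fasted WAT (log2 -0.54, SE 0.07, adjusted p = 4.01e-07). Slc25a21, which carries oxoadipate, changed by -0.07, 0.07 and -0.02 in WAT, LIV and SM, with no call.

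Slc25a35, an orphan carrier with no settled substrate, moved with this group. Its levels were 10.23, 10.13, 10.06, 10.00 and 10.06 in fed WAT and 8.26, 8.46, 8.61, 8.11 and 8.77 in fasted WAT. All fasted arrays lie more than 1 log2 unit under all fed arrays, a fall of 3.15-fold (log2 -1.65, SE 0.11, adjusted p = 1.54e-11). In LIV, where the gene is dimmest, the change was -0.28 (SE 0.12, adjusted p = 0.132).

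**Figure D2:**
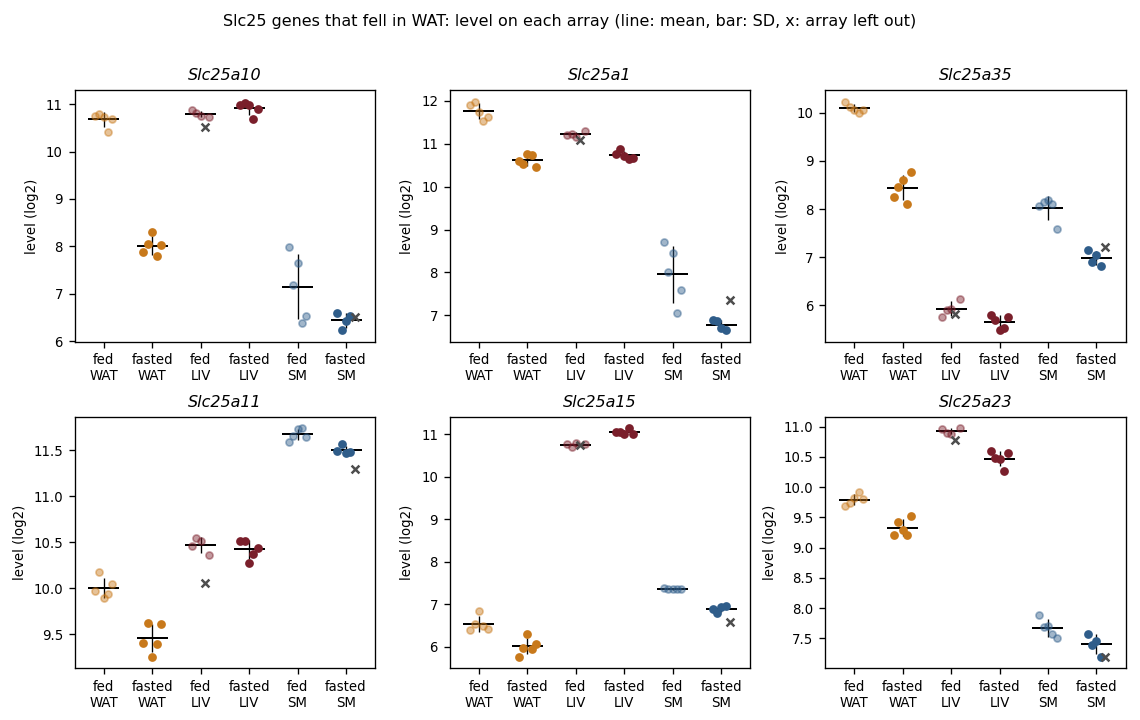
Level (log2 signal) of the 6 Slc25 genes that fell in WAT on every array of the 6 groups, with lines for means and bars for SD over the arrays used and crosses for the arrays left out. The fed and fasted WAT arrays do not overlap for any of the 6 genes, and in fed SM Slc25a10 and Slc25a1 spread over more than 1.5 log2 units.

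In SM, Slc25a1 and Slc25a10 spread widely among fed mice, and Slc25a35 did so less. Slc25a1 was at 8.72, 8.0, 8.44, 7.05 and 7.59 in fed SM and at 6.89, 6.87, 6.70 and 6.65 in fasted SM, which do not overlap (log2 -1.19, SE 0.19, adjusted p = 2.91e-05). Fasted SM 5, the array left out, was at 7.36, above fed SM 4. With that array kept the change was -1.07 (adjusted p = 9.32e-05). Slc25a10 was at 7.98, 7.18, 7.65, 6.39 and 6.54 in fed SM and at 6.59, 6.23, 6.43 and 6.52 in fasted SM, which do overlap (log2 -0.70, SE 0.20, adjusted p = 0.0106). Slc25a35 was at 8.06, 8.14, 8.19, 8.10 and 7.58 in fed SM and at 7.14, 6.90, 7.05 and 6.81 in fasted SM, which do not overlap (log2 -1.04, SE 0.12, adjusted p = 1.89e-07).

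Adipocyte genes moved with these falls in SM. Of 8 markers, Plin1, Retn and Lep fell and none rose, none of the 8 was under the 25th percentile of all values in SM, and the mean of the list ran from 7.12 to 9.43 in fed and from 7.19 to 8.24 in fasted SM. The fed SM arrays rank in 1 order by that mean (9.43, 9.17, 8.59, 7.71 and 7.12 for arrays 1, 3, 2, 5 and 4) and by Slc25a10 (7.98, 7.65, 7.18, 6.54 and 6.39) and Slc25a1 (8.72, 8.44, 8.0, 7.59 and 7.05). Slc25a35 does not follow that order in fed SM. Fasted SM arrays 1 to 4 do not share an order by the mean (8.24, 7.76, 7.81 and 7.19) and by Slc25a10 (6.59, 6.23, 6.43 and 6.52). With the adipocyte mean as a covariate, the change was -0.78 for Slc25a1 (adjusted p = 1.8e-06) and -0.95 for Slc25a35 (adjusted p = 3.65e-06), both still called, and -0.30 for Slc25a10 (adjusted p = 0.094), no longer called. Of the same 8 markers, 1 fell and none rose in WAT (lowest change -1.93), and 1 rose and none fell in LIV (highest 2.35). Genes of the list thus change with the fast, so the covariate can also take up part of that change. Of the 12 calls in SM, 5 were lost with this covariate, those of Slc25a10, Slc25a28 (0.35), Slc25a30 (0.43), Slc25a33 (0.37) and Slc25a47 (-0.35). Slc25a10 also lost its call in SM when that tissue was fitted on its own (adjusted p = 0.116). The mean of 7 slow fibre genes spread more, from 5.39 to 10.21 in fed and from 8.34 to 9.86 in fasted SM, and with it as a covariate all 12 calls in SM held.

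Genes of enzymes that make or use citrate and malate, or supply NADPH, fell too. Of 9 measured genes for citrate export and NADPH, 7 fell in WAT, 4 in LIV and 1 in SM, and none rose. In WAT, Acly, which splits exported citrate, changed by -1.94 (SE 0.20), Idh1, a cytosolic source of NADPH, by -1.40 (SE 0.13), and Me1, the malic enzyme, by -1.20 (SE 0.09). Fasn, fatty acid synthase, fell in all 3 tissues, by 1.59, 1.43 and 1.73 on the log2 scale in WAT, LIV and SM. The fall in SM (SE 0.28) is set against fed arrays that spread widely (SD 0.89, and 0.10 in fasted SM).

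The RefSeq promoter sequences (build GRCm38.p6) of the falling pair Slc25a1 and Slc25a10, for comparison of carriers that moved together, and of the rising carriers Slc25a34 and Slc25a47, described further down, are printed as the 250 bases before the start site, 5′ to 3′ on the gene's strand. Capitals mark matches, on either strand, to CACGTG (the E-box), AGGTCA (the core of many nuclear receptor sites) and CCAAT. A core of forkhead sites, GTAAACA, was searched too. None of the 4 motifs holds another within it.
Slc25a1, chr16:17928220-17928469, minus strand: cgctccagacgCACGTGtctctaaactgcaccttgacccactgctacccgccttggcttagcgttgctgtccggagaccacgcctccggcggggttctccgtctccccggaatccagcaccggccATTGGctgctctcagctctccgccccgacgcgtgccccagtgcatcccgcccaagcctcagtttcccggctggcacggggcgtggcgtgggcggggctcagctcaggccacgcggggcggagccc
Slc25a10, chr11:120491587-120491836, plus strand: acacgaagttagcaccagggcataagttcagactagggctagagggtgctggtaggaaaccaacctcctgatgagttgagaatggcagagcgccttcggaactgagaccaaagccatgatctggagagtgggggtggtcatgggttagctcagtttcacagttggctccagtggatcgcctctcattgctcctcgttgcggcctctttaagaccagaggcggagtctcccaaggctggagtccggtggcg
Slc25a34, chr4:141623835-141624084, minus strand: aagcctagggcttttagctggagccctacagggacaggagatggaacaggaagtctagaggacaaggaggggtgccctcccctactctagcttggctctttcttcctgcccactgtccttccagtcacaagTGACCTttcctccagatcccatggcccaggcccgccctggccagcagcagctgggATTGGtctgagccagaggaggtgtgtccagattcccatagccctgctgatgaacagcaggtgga
Slc25a47, chr12:108850879-108851128, plus strand: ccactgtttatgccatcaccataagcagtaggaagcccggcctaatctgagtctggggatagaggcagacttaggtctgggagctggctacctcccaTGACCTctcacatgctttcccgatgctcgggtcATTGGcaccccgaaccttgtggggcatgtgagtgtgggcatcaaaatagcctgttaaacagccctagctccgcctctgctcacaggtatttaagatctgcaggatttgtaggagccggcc
Slc25a1 holds the E-box and, on the other strand, the CCAAT letters, Slc25a10 holds none of the 4 motifs, and Slc25a34 and Slc25a47 hold the receptor core and the CCAAT letters, all on the other strand. The table has 46 promoters of 36 of the Slc25 genes, and CACGTG was in 8 of them (6.02% of all 32851 promoters), AGGTCA in 4 (14%), CCAAT in 21 (33.8%) and GTAAACA in 0 (3.17%). Slc25a34 and Slc25a47 were the only called carriers with AGGTCA, which Slc25a39 and Slc25a45, not called in any tissue, also held. Among rising carriers whose promoters are not printed, Slc25a20 held none of the 4 motifs and Slc25a42 held only CCAAT. The printed pair therefore does not stand for the rising carriers. A match describes the letters and is not a bound site.

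The carriers that supply the ATP synthase, by exchanging ADP for ATP and importing phosphate, were not called in any tissue. Slc25a3, the phosphate carrier, changed by -0.11, 0.06 and -0.03 in WAT, LIV and SM. Slc25a4, the ADP/ATP carrier of heart and muscle, changed by -0.20, 0.10 and -0.10, and Slc25a5, the ADP/ATP carrier of most other tissues, by -0.24, -0.07 and 0.20. In WAT the adjusted p was 0.0371 for Slc25a4 and 0.0125 for Slc25a5, but both stayed under 1.3-fold. The 2 other probe sets of Slc25a5 gave -0.25 and -0.30 in WAT, and whether the probe sets of Slc25a5, or the 2 of Slc25a36, also bind near-identical gene copies was not tested. Among the 9 members of this group, Slc25a23 alone was called.

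Slc25a23, a calcium-regulated carrier of ATP-magnesium and phosphate, fell in WAT and LIV. It was at 9.68, 9.73, 9.82, 9.92 and 9.80 in fed WAT and at 9.21, 9.43, 9.29, 9.20 and 9.53 in fasted WAT (log2 -0.46, SE 0.08, adjusted p = 6.72e-05). In LIV it went from 10.96, 10.90, 10.88 and 10.97 to 10.59, 10.48, 10.46, 10.26 and 10.56 (log2 -0.46, SE 0.08, adjusted p = 0.000371). The arrays do not overlap in either tissue, and in SM the change was -0.26 (adjusted p = 0.0234), under the minimum fold. Its relative Slc25a25 was too variable for a call, with fed SM arrays from 6.99 to 8.12 and a change there of -0.51 (SE 0.25, adjusted p = 0.162). Of 9 genes of the ATP synthase and the outer membrane channel, 2 fell in WAT, Ppif (-0.62), the cyclophilin that governs the permeability transition, and Vdac3 (-0.40), and none was called in LIV or SM. Of 62 respiratory chain subunits, 11 fell and 1 rose in WAT (19.4%, against 15.7% of all genes), while 1 was called in LIV and 0 in SM. Their median change was -0.23 in WAT, 0.02 in LIV and -0.14 in SM, with 52, 27 and 54 of them below 0.

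Of the 9 amino acid carriers, 1 rose and 1 fell in WAT, 3 rose in LIV, and 3 rose and 1 fell in SM. Slc25a22, a glutamate carrier that brings glutamate into the matrix together with a proton, rose in every tissue. In SM it was at 6.49, 6.61, 6.41, 6.27 and 6.24 in fed mice and at 7.47, 7.80, 7.77 and 7.28 in fasted mice. All fasted arrays lie above all fed arrays, a rise of 2.26-fold (log2 1.18, SE 0.10, adjusted p = 7.64e-10). The rise was 0.61 (SE 0.10, adjusted p = 7.92e-05) in LIV, from 9.38, 9.39, 9.46 and 9.25 to 10.04, 10.07, 9.82, 10.20 and 9.77. In WAT it was 0.42 (SE 0.09, adjusted p = 0.0011), from 7.88, 8.08, 8.06, 7.83 and 8.06 to 8.50, 8.35, 8.47, 8.33 and 8.35. The arrays do not overlap in any of the 3 tissues.

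Citrin and the ornithine carrier supply the urea cycle in liver, and their changes had the same sign as each other in every tissue. Slc25a13, citrin, the aspartate-glutamate carrier of liver, was at 10.53, 10.55, 10.52 and 10.55 in fed LIV and at 11, 11.04, 10.76, 11.05 and 10.90 in fasted LIV, a rise of 0.41 (SE 0.07, adjusted p = 5.32e-05) without overlap. Its changes of -0.15 in WAT and -0.14 in SM were not called. Slc25a12, its counterpart in muscle, changed by 0.33 in LIV (adjusted p = 0.0135), under the minimum fold, and by -0.12 in SM. Slc25a15, the ornithine carrier, fell in WAT (log2 -0.52, SE 0.08, adjusted p = 7.01e-06) and in SM (log2 -0.46, SE 0.08, adjusted p = 9.93e-05). In LIV, where the gene is highest, its change was 0.30 (adjusted p = 0.0134), under the minimum fold, with fed arrays from 10.69 to 10.79 and all fasted arrays higher, up to 11.14. Slc25a29, a carrier of basic amino acids, rose by 0.41 in LIV (SE 0.10, adjusted p = 0.00492), a call that was lost without fed LIV 1 or without fasted LIV 2. It is dim there, with means of 4.15 in fed and 4.57 in fasted LIV, under the median of all values (5.02).

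Slc25a44 and Slc25a38 were called in SM alone of the 3 tissues. Slc25a44, a carrier of branched-chain amino acids, was at 8.85, 8.84, 8.61, 8.74 and 8.77 in fed SM and at 9.09, 9.10, 9.27 and 9.35 in fasted SM (log2 0.44, SE 0.09, adjusted p = 0.000392). Slc25a38, the glycine carrier of heme synthesis, was between 8.15 and 8.46 in fed and between 8.63 and 8.84 in fasted SM (log2 0.38, SE 0.09, adjusted p = 0.00147). Neither overlaps, but fasted SM 5, the array left out, was at 8.72 and 8.45, and with it the changes were 0.34 and 0.33, under the minimum fold. The call of Slc25a38 was also lost without fed SM 5, fasted SM 1 or fasted SM 4.

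Of 5 measured urea cycle genes, Asl (0.76), which splits argininosuccinate, and Arg1 (0.41), which releases urea, rose in LIV, and none was called elsewhere. Of 9 genes of the malate-aspartate and glycerol phosphate shuttles, 5 fell and 1 rose in WAT, 3 rose in LIV and none was called in SM. In WAT the falls were led by Gpt (-2.52, SE 0.10), alanine aminotransferase, and Gpd1 (-1.37, SE 0.08), which makes glycerol phosphate, while Got1, the cytosolic aspartate aminotransferase, rose in WAT (0.49) and LIV (0.46).

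In LIV the carnitine carrier rose, as did all 6 measured genes of the carnitine shuttle and the first step of fatty acid oxidation. Slc25a20, the carnitine-acylcarnitine carrier, which brings fatty acids into the matrix as acylcarnitines, was at 9.91, 9.64, 9.78 and 9.80 in fed LIV and at 10.45, 10.62, 10.44, 10.52 and 10.53 in fasted LIV. It rose 1.66-fold (log2 0.73, SE 0.09, adjusted p = 1.85e-06), and no fasted array lies under 10.44. Its changes of 0.33 in WAT and 0.31 in SM had adjusted p of 0.00448 and 0.0129 but stayed under the minimum fold. Of those 6 genes, 2 rose in WAT and 1 in SM, and none fell. The largest rises in LIV were those of Slc22a5, the plasma membrane carnitine transporter (1.26, SE 0.09), Crat, carnitine acetyltransferase (0.92, SE 0.07), and Cpt1a, which makes acylcarnitines at the outer membrane (0.65, SE 0.08).

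Slc25a47, a carrier found mainly in liver, rose in LIV and fell in SM. It was at 11.05, 10.73, 10.56 and 10.94 in fed LIV and at 11.60, 11.80, 11.65, 11.91 and 11.69 in fasted LIV, which do not overlap (log2 0.91, SE 0.11, adjusted p = 1.48e-06). In SM it was far dimmer, at 5.83, 5.90, 6.00, 5.60 and 5.83 in fed and 5.39, 5.23, 5.44 and 5.70 in fasted mice (log2 -0.39, SE 0.11, adjusted p = 0.0114). These overlap, and the call in SM was lost without any 1 of 4 SM arrays (fed SM 2, fed SM 3, fasted SM 1 or fasted SM 2). The mean of the hepatocyte genes lay between 4.64 and 5.57 in fed SM and between 4.93 and 5.97 in fasted SM. The 2 remaining members of this group, Slc25a45 and Slc25a48, had changes between -0.14 and 0.18, with no call in any tissue.

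Of the 8 measured carriers of coenzymes, vitamins and nucleotides, 4 rose in WAT, 2 rose and 1 fell in LIV, and 1 rose in SM. Slc25a32, which carries folate and is also linked to flavin adenine dinucleotide, was at 7.43, 7.56, 7.62, 7.51 and 7.24 in fed WAT and at 8.39, 8.12, 8.12, 8.80 and 8.25 in fasted WAT (log2 0.87, SE 0.11, adjusted p = 6.86e-07). In LIV it was at 8.23, 8.03, 8.11 and 8.14 and 8.77, 9.02, 8.71, 9.15 and 8.97 (log2 0.80, SE 0.12, adjusted p = 1.72e-05). Neither tissue shows overlap, and the change in SM was 0.35 (adjusted p = 0.0293), under the minimum fold.

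Slc25a42, which brings coenzyme A into mitochondria, rose in WAT and was not called elsewhere. It was at 7.54, 7.59, 7.86, 7.73 and 7.62 in fed WAT and at 8.61, 8.42, 8.60, 8.65 and 8.29 in fasted WAT, a rise of 1.79-fold (log2 0.84, SE 0.07, adjusted p = 1.85e-09). Its other changes were 0.04 in LIV and 0.21 in SM. Slc25a51, the NAD carrier, rose by 0.79 in LIV (SE 0.12, adjusted p = 1.52e-05), where the fed arrays lay between 8.68 and 9.26 and the fasted arrays between 9.61 and 9.90. In WAT it rose by 0.41 (SE 0.11, adjusted p = 0.00451), with 1 fasted array, fasted WAT 4, at 10.21 and the others between 9.51 and 9.66, and without that array the change was 0.29 and under the minimum fold.

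Slc25a17, the peroxisomal carrier of coenzyme A and related cofactors, went the other way. It was at 10.05, 10.09, 10.03 and 10.00 in fed LIV and at 9.56, 9.34, 9.34, 9.33 and 9.51 in fasted LIV, a fall of 1.54-fold without overlap (log2 -0.63, SE 0.08, adjusted p = 1.81e-06). Fed LIV 4, the array left out, was at 9.49, within the range of the fasted arrays. In WAT the change of Slc25a17 was -0.35 (adjusted p = 0.0006) and in SM 0.32 (adjusted p = 0.00314), both under the minimum fold. Slc25a33, a pyrimidine nucleotide carrier, was called in WAT (0.41, SE 0.15, adjusted p = 0.0379) and SM (0.45, SE 0.15, adjusted p = 0.0368), the weakest calls of the family: the WAT arrays overlap, the call in WAT was lost without any of 7 arrays and that in SM without any of 5, and fasted SM 4 was at 7.72 against 6.79 to 6.95 for the others. The rest of this group, Slc25a16, Slc25a26 and Slc25a36, was not called, and Slc25a36 in SM (-0.38, adjusted p = 5.81e-05) lay just under the minimum fold.

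**Figure D3:**
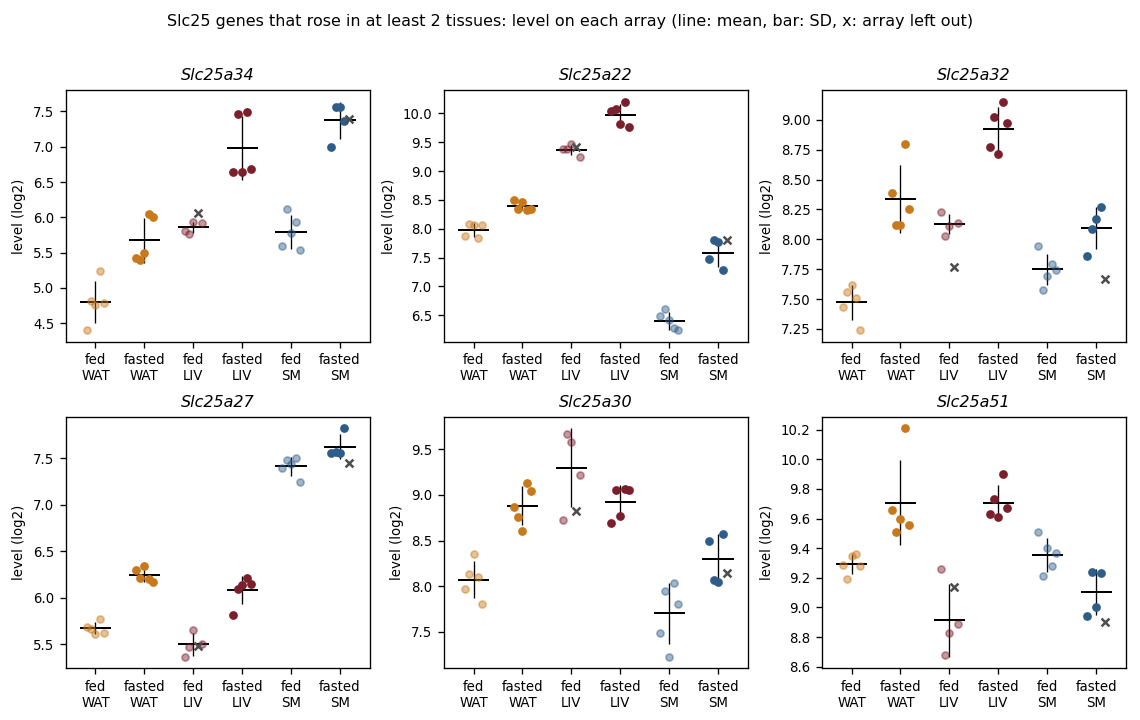
Level (log2 signal) on every array of 6 Slc25 genes that rose in at least 2 tissues, with lines for means and bars for SD over the arrays used and crosses for the arrays left out. Slc25a34 and Slc25a22 are higher on all fasted than on all fed arrays in each of the 3 tissues, and Slc25a30 is higher in fasted WAT and SM while its LIV arrays overlap.

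Slc25a37, mitoferrin-1, which brings iron into mitochondria for heme and iron-sulfur clusters, rose in fat and fell in liver. It was at 7.69, 7.63, 7.36, 7.45 and 7.64 in fed WAT and at 8.51, 8.18, 8.07, 8.33 and 8.05 in fasted WAT, a rise of 1.59-fold (log2 0.67, SE 0.10, adjusted p = 5.15e-06). In LIV it went from 8.75, 8.78, 8.60 and 8.79 to 7.93, 7.78, 8.23, 7.86 and 7.92, a fall of 1.72-fold (log2 -0.79, SE 0.10, adjusted p = 3.66e-06). The arrays do not overlap in either tissue, and in SM the change was -0.23 (adjusted p = 0.121). Slc25a28, mitoferrin-2, was called in SM alone of the 3 tissues, at 8.18, 8.08, 8.18, 8.25 and 8.40 in fed and 8.49, 8.50, 8.73 and 8.79 in fasted mice (log2 0.41, SE 0.08, adjusted p = 0.000272), a call that was lost without fed SM 2, fasted SM 3 or fasted SM 4, and also with fasted SM 5 kept (0.38) or with the adipocyte mean as a covariate (0.35). The glutathione carriers Slc25a39 and Slc25a40 were not called.

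Of 8 measured genes for iron, heme and iron-sulfur clusters, 1 rose in WAT, 1 rose and 2 fell in LIV, and 1 rose in SM. Alas2, the erythroid form of the first enzyme of heme synthesis, rose in WAT (0.73, SE 0.12) and fell in LIV (-0.57, SE 0.13), as did Slc25a37, but it also rose in SM (0.61, SE 0.13). Abcb10, a partner of mitoferrin-1 in the inner membrane, fell in LIV (-0.73, SE 0.07) and was not called in WAT or SM. Cpox, a later enzyme of heme synthesis, rose in LIV (0.56, SE 0.08), opposite to Slc25a37. Of 4 erythroid markers, Alas2 alone was called, and Epb42 and Rhag were at or under 3.40 in every group, below the 25th percentile of all values (3.57). Of 9 macrophage genes, 5 fell in LIV (Adgre1, Csf1r, Lyz2, Mpeg1 and Clec4f, by 0.55 to 0.89 on the log2 scale) and none rose, and the mean of the list lay between 6.83 and 7.19 in fed and between 6.42 and 6.75 in fasted LIV. In WAT, Mpeg1 and Cd163 rose and Cx3cr1 fell, and the list's mean lay between 7.59 and 7.77 in fed and between 7.57 and 8.06 in fasted arrays. The part of these cells in the change of Slc25a37 was not tested.

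**Figure D4:**
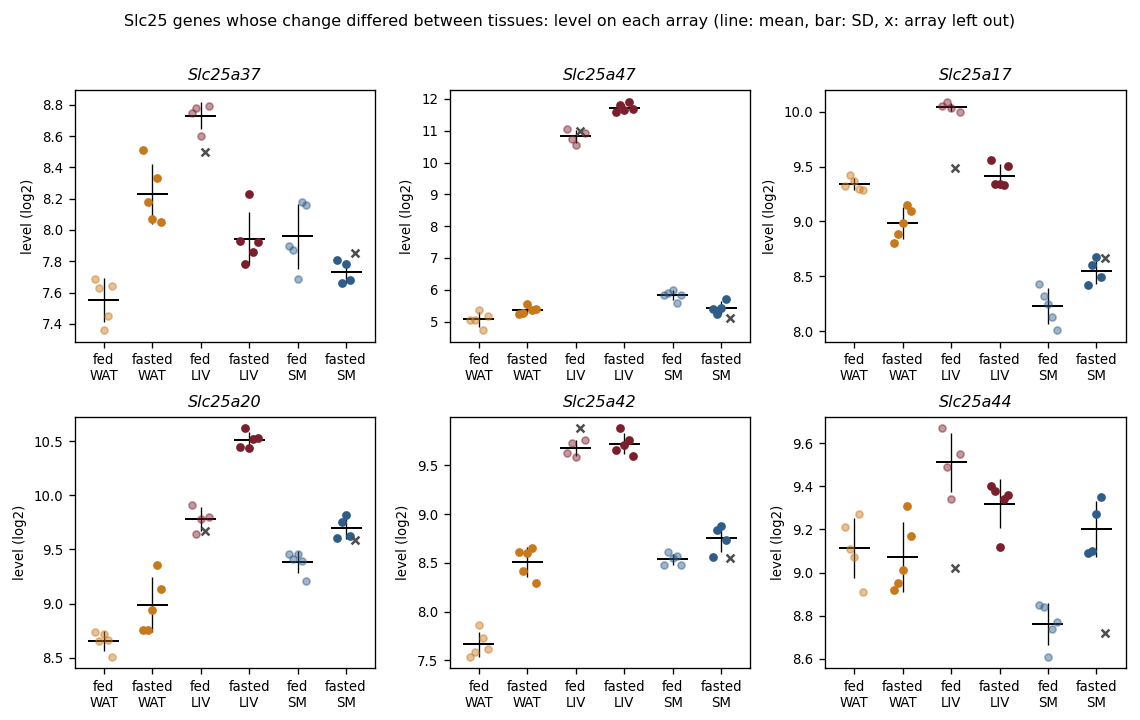
Level (log2 signal) on every array of 6 Slc25 genes whose change differed between tissues, with lines for means and bars for SD over the arrays used and crosses for the arrays left out. Slc25a37 is higher in fasted WAT and lower in fasted LIV, Slc25a47 and Slc25a20 rise in LIV, Slc25a17 falls in LIV, Slc25a42 rises in WAT and Slc25a44 in SM.

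Of the 3 carriers named for their likeness to uncoupling proteins, Slc25a27 and Slc25a30 rose and Slc25a14 was not called. Slc25a27 (UCP4) was between 5.61 and 5.77 in fed and between 6.17 and 6.34 in fasted WAT (log2 0.57, SE 0.07, adjusted p = 5.79e-07), and it rose by 0.58 in LIV (SE 0.08, adjusted p = 2.95e-06). Slc25a30 (KMCP1) was at 7.97, 8.13, 8.35, 8.10 and 7.81 in fed WAT and at 8.87, 8.76, 8.60, 9.13 and 9.04 in fasted WAT (log2 0.81, SE 0.16, adjusted p = 0.000393). It rose by 0.59 in SM (SE 0.17, adjusted p = 0.0132), a call that was lost without fed SM 3 or fasted SM 4 and with the adipocyte mean as a covariate (adjusted p = 0.102), and its change in LIV was -0.37 (adjusted p = 0.174). Of the carriers that bear other names, Ucp3 alone of 5 measured genes was called, with rises of 1.01 in WAT and 1.34 in SM.

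The largest rise of the family in LIV and SM was that of Slc25a34, an orphan carrier. In SM it was at 5.59, 6.12, 5.78, 5.94 and 5.54 in fed mice and at 7.0, 7.56, 7.56 and 7.37 in fasted mice. The fasted arrays all lie at 7.0 or more and the fed arrays at 6.12 or less, a rise of 2.98-fold (log2 1.58, SE 0.19, adjusted p = 3.79e-07). In LIV it went from 5.81, 5.77, 5.93 and 5.92 to 6.64, 7.46, 6.64, 7.49 and 6.69 (log2 1.13, SE 0.19, adjusted p = 0.000113). The fasted LIV arrays fall apart, with 2 near 7.5 and 3 near 6.6, but all lie above the fed arrays. In WAT it went from 4.40, 4.81, 4.76, 5.24 and 4.79 to 5.42, 5.40, 5.49, 6.05 and 6.00 (log2 0.87, SE 0.18, adjusted p = 0.000453), again without overlap. Of the other members with no settled substrate, Slc25a43, Slc25a46 and Slc25a53 were not called, and the 2 probe sets of Slc25a46 differ in LIV (-0.03 on the brighter and 0.49 on the dimmer).

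In fed mice, 18 of the 46 carriers were higher in 1 tissue than in both others, as were 20.8% of all genes. At an adjusted p under 0.05 and at least 2-fold, 19 of the 46 differed between LIV and WAT (41.3%, against 22.3% of all genes), 16 between SM and WAT (34.8% against 23.0%) and 23 between SM and LIV (50.0% against 24.8%), while 18 differed in none of the 3. LIV was the highest tissue, against both others, for 11 genes (Slc25a13, Slc25a15, Slc25a21, Slc25a22, Slc25a23, Slc25a25, Slc25a30, Slc25a42, Slc25a45, Slc25a47 and Slc25a48), SM for 5 (Slc25a4, Slc25a11, Slc25a12, Slc25a26 and Slc25a27) and WAT for 2 (Slc25a24 and Slc25a35). Levels of different genes are not compared, since they come from different probes.

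The aspartate-glutamate carriers, which serve the same exchange, were highest in different tissues. Slc25a13 had fed means of 10.54 in LIV, 4.79 in WAT and 4.28 in SM, so that LIV was 53.8-fold above WAT (log2 5.75, SE 0.07), while WAT and SM differed by less than 2-fold. Slc25a12 had fed means of 12.31 in SM, 8.76 in LIV and 7.99 in WAT, with SM 11.7-fold above LIV (log2 3.55, SE 0.09).

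Slc25a47 was at 10.82 in fed LIV, 5.83 in SM and 5.07 in WAT, 31.8-fold higher in LIV than in SM (log2 4.99, SE 0.11). Slc25a21 stood at 7.28 in LIV and at 3.47 and 3.40 in SM and WAT, below the 25th percentile of all values (3.57). Slc25a15 followed with 10.75 in LIV, 7.36 in SM and 6.54 in WAT, and Slc25a48 with 6.81 in LIV, 4.2 in WAT and 4.11 in SM, where WAT and SM do not differ beyond their spread (adjusted p = 0.461). With Slc25a13, these are the 5 carriers with the largest measured lead of LIV over the next tissue, and that of Slc25a21 is against levels near background. Slc25a13 and Slc25a48 are also dim in WAT and SM, under the median of all values (5.02).

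Of the ADP/ATP carriers, Slc25a4 was highest and Slc25a5 lowest in SM. Slc25a4 was at 12.55 in SM, 10.00 in WAT and 5.86 in LIV, with SM 5.88-fold above WAT (log2 2.56, SE 0.07) and 103-fold above LIV. Its relative Slc25a5 was at 12.12 in LIV, 11.59 in WAT and 10.00 in SM, and LIV and WAT differed by less than 2-fold (1.45-fold). The citrate and dicarboxylate carriers were lowest in SM: Slc25a1 was at 11.76 in WAT, 11.22 in LIV and 7.96 in SM, and Slc25a10 at 10.80 in LIV, 10.68 in WAT and 7.15 in SM, where LIV and WAT do not differ beyond their spread (adjusted p = 0.656). In WAT, Slc25a35 led with 10.10 against 8.01 in SM and 5.93 in LIV (both steps 2.08, SE 0.11 and 0.12), and Slc25a24, a calcium-regulated ATP-magnesium carrier, with 7.55 against 5.56 in SM and 4.86 in LIV. The ADP/ATP carrier Slc25a31, known from testis, and Slc25a54 stayed under the 25th percentile of all values in every group.

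**Figure D5:**
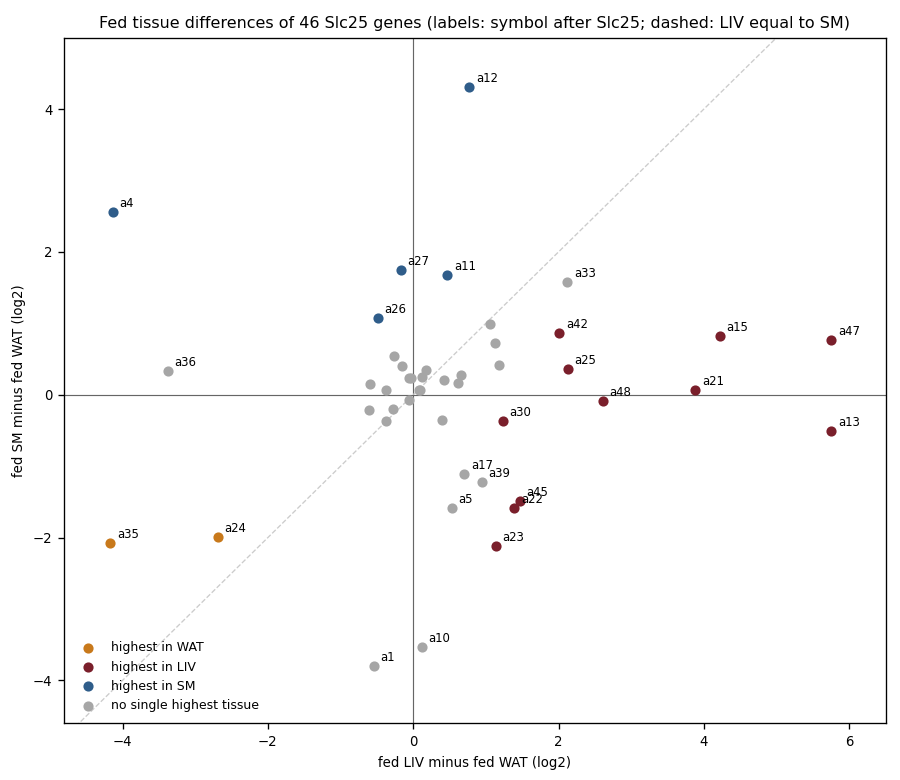
Difference between fed LIV and fed WAT (horizontal, log2) and between fed SM and fed WAT (vertical, log2) for the 46 Slc25 genes, coloured by the tissue that is higher than both others at an adjusted p under 0.05 and at least 2-fold. Slc25a13 and Slc25a47 lie at 5.75 on the LIV axis, Slc25a12 at 4.31 on the SM axis, and Slc25a4 at -4.13 and 2.56.

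Fasting changes were also compared between tissues within the same fit, with the same p threshold and a difference of 1.3-fold or more. The change differed between WAT and LIV for 13 carriers (28.3%, against 16.1% of all genes), between WAT and SM for 14 (30.4% against 15.1%) and between SM and LIV for 16 (34.8% against 15.3%), and 23 carriers differed in at least 1 of these, as did 28.7% of all genes. Slc25a10 fell more in WAT than in LIV by 2.78 (adjusted p = 4.13e-08) and more than in SM by 1.96 (adjusted p = 8.45e-06) on the log2 scale. Slc25a37 differed by 1.46 between WAT and LIV (adjusted p = 3.18e-08), and Slc25a47 by -1.30 between SM and LIV (adjusted p = 1.14e-06).

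The rise of Slc25a42 in WAT exceeded its change in LIV by 0.80 (adjusted p = 5.42e-06) and in SM by 0.63 (adjusted p = 0.000125). The rise of Slc25a20 in LIV exceeded its change in WAT by 0.40 (adjusted p = 0.0274) and in SM by 0.42 (adjusted p = 0.0271). The change of Slc25a17 in SM lay 0.95 above that in LIV (adjusted p = 5.72e-07). For Slc25a34 none of the 3 differences was called, and for Slc25a22 the rise in SM exceeded that in WAT by 0.76 (adjusted p = 0.000204) and that in LIV by 0.57 (adjusted p = 0.00498). Slc25a1 was not called different between any tissues, although it was called in WAT and SM and not in LIV.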

How the data were processed

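The data are 30 arrays (Affymetrix Mouse Gene 1.1 ST), 5 in each of 6 groups. The authors made the deposited log2 values with RMA in Partek, per the labels. RMA corrects background, quantile-normalizes the arrays and summarises the probes of a probe set, so a change in a tissue's total mRNA would not be seen. Array medians ran from 4.915 to 5.156, 0 arrays were identical, and the number of arrays limits the precision.

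Of 28815 probe sets, 21153 name 1 gene in the platform annotation, 1867 name several and 5795 are not listed. No symbol differed from RefSeq. The 46 Slc25 genes have 51 such probe sets, and 4 genes have more than 1.

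A model with 1 mean per group was fitted to 28 arrays with limma 3.58.1 in R 4.3.3 (prior degrees of freedom 4.24), and p was adjusted over all probe sets by Benjamini-Hochberg. The study's text names another fasted SM array as left out, and that set was an alternative. Calls needed an adjusted p under 0.05 and at least 1.3-fold (2-fold between fed tissues), and the fits were tested on simulated data. Lists were counted, not tested. Other alternatives were all arrays, array weights, each tissue on its own, cyclic loess, averaged probe sets, removal of dim probe sets and priors with an intensity trend. Further ones were a replicate block, the replicate number within each diet as a random block across tissues, other thresholds and leaving out every array once. Marker means as covariates, a set of 29 arrays and the other Slc25a5 probe sets were added after seeing the data.

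Named with values were all called members, the 2 largest changes of each substrate group, members called in all 3 tissues or in opposite directions, the 5 largest leads of fed LIV and up to 3 called genes of each partner list. Of the 5 largest leads of fed SM and of fed WAT, only part are given with fed levels. Members named beyond that rule, and marker genes, were chosen after their values were seen. The members and lists were chosen with earlier results of these data known. Tables and figures used Python 3.11.15, numpy 2.4.6, pandas 2.3.3 and matplotlib 3.10.9.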

Additional observations from a re-analysis of the deposited data

Results flagged for a closer look

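The change after the fast differed between tissues for 23 carriers, as tested within the fit by the contrast of the changes. The differences below are on the log2 scale and passed an adjusted p of 0.05 (limma) and 1.3-fold. For the change in WAT minus that in LIV, they were -2.78 for Slc25a10, -1.37 for Slc25a35, -0.82 for Slc25a15, -0.62 for Slc25a47, -0.56 for Slc25a13, -0.49 for Slc25a11, -0.49 for Slc25a38, -0.47 for Slc25a29, -0.44 for Slc25a26 and -0.40 for Slc25a20, and 1.46 for Slc25a37, 1.18 for Slc25a30 and 0.80 for Slc25a42.

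For the change in WAT minus that in SM, they were -1.96 for Slc25a10, -0.76 for Slc25a22, -0.67 for Slc25a17, -0.67 for Slc25a38, -0.61 for Slc25a35, -0.48 for Slc25a44 and -0.44 for Slc25a5, and 0.90 for Slc25a37, 0.68 for Slc25a47, 0.66 for Slc25a51, 0.63 for Slc25a42, 0.61 for Slc25a36, 0.52 for Slc25a32 and 0.43 for Slc25a43. Slc25a5, Slc25a36 and Slc25a43 were not called within any tissue.

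For the change in SM minus that in LIV, they were -1.30 for Slc25a47, -1.04 for Slc25a51, -0.83 for Slc25a10, -0.76 for Slc25a15, -0.76 for Slc25a35, -0.70 for Slc25a29, -0.55 for Slc25a13, -0.45 for Slc25a12, -0.44 for Slc25a36, -0.42 for Slc25a20 and -0.38 for Slc25a39, and 0.97 for Slc25a30, 0.95 for Slc25a17, 0.64 for Slc25a44, 0.57 for Slc25a22 and 0.56 for Slc25a37.

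A single array stood far from the others of its group (Dixon's ratio) in 12 of 276 groups of 4 or 5 arrays, where chance alone gives about 1 in 20. Among called changes this touches Slc25a51 in WAT, with fasted WAT 4 at 10.21, and Slc25a35 in SM, with fed SM 5 at 7.58. The others were Slc25a16 in fed WAT 3 (10.10), Slc25a28 in fed WAT 3 (7.89), Slc25a41 in fed WAT 1 (4.01) and in fasted LIV 2 (4.77), Slc25a40 in fasted WAT 1 (6.69), Slc25a26 in fed LIV 3 (6.58), Slc25a44 in fasted LIV 3 (9.12), Slc25a20 in fed SM 5 (9.21), Slc25a53 in fed SM 4 (4.13) and Slc25a27 in fasted SM 4 (7.82).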

How the results depend on the processing

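No called change reversed under any alternative. Of 39 called changes, 31 held without each array in turn. The 8 lost without at least 1 array were Slc25a33 and Slc25a51 in WAT, Slc25a29 in LIV, and Slc25a28, Slc25a30, Slc25a33, Slc25a38 and Slc25a47 in SM. Without each array in turn, the counts ran from 7 to 10 rises and 6 to 7 falls in WAT, 8 to 9 and 3 to 4 in LIV, and 3 to 8 and 4 to 6 in SM, the 3 rises being those without fasted SM 4. Rises in SM numbered 3 with all 30 arrays and 4 with 29 arrays (without fed LIV 4), and falls in SM 3 with the adipocyte mean as a covariate and 3 at a false discovery rate of 1%. With each tissue fitted on its own, 9 rose and 4 fell in LIV, and 6 rose and 4 fell in SM. Other minimum folds moved counts by construction: with none, 12 fell in WAT and 11 rose and 10 fell in SM, and at 1.5-fold, 5 rose and 3 fell in WAT and 3 rose and 3 fell in SM. At 1.3-fold, fed tissues differed for 33 (LIV and WAT), 25 (SM and WAT) and 35 (SM and LIV) genes. With fasted SM 1 left out in place of fasted SM 5, 6 rose and 7 fell in SM, and Slc25a38 and Slc25a44 lost their calls there.

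Arrays of the same number deviated together weakly at most (correlations from -0.252 to 0.163 for fed and fasted arrays of 1 tissue, from -0.122 to 0.177 across tissues). Across tissues, 6 of 26 pairs were over 0.1, and fasted number 4 was so in every pair of tissues (0.15, 0.177 and 0.106). It was the highest fasted array in WAT, LIV and SM for Slc25a32 (8.80, 9.15 and 8.27) and Slc25a33 (5.97, 7.82 and 7.72). Whether these arrays share a mouse was not tested. With the replicate number as a block within tissues, 8 rose and 6 fell in WAT, 9 and 3 in LIV, and 5 and 6 in SM, and Slc25a33 in WAT and Slc25a33 and Slc25a38 in SM lost their calls. With the replicate number within each diet as a block across tissues, fed tissues differed for 19, 16 and 23 genes and changes between tissues for 15, 16 and 17. Genes near background, such as Slc25a31 and Slc25a54, could hardly show a fall.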
